A study of Mus musculus with 9 samples.

Results

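The genes described here are 32 enzymes, regulators and transporters of glycolysis, lactate transport and glycogen metabolism. They were chosen by name from these pathways, with earlier results of these data known. They make up 32 of the 37840 genes listed in the 9 count tables, where all 32 were found by symbol. The tables come from single-nucleus Drop-seq of ventricles of C57BL6/J mice, in which a nucleus and a barcoded bead share a droplet and each captured RNA molecule is counted once by its UMI (unique molecular identifier). The 3 groups of 3 libraries were knockouts of both ERRα and ERRγ (ERRalphaKO/ERRgammaKO) at postnatal days 9 to 10 (KO P10), controls of the same stage (control P10) and controls at postnatal day 6 (control P6). The controls were not wild type at both loci: they carried the genotype ERRalphaHet/ERRgammaWT, so at least 1 ERRα allele was mutant in every group. The labels give neither the way the genes were deleted nor how many animals made up a library, and sex is given as not determined, so p-values measure the spread between libraries, which may be technical.

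Glycolysis takes up glucose, phosphorylates it with hexokinase, commits it at phosphofructokinase and ends at pyruvate, which lactate dehydrogenase turns into lactate for export or receives back from lactate. Muscle stores glucose as glycogen, built by glycogen synthase and branching enzyme and broken down by glycogen phosphorylase, which phosphorylase kinase switches on, while acid alpha-glucosidase degrades glycogen in lysosomes. In the mouse heart the fuel shifts after birth away from glucose and lactate and towards fatty acids, and the nuclear receptors ERRα and ERRγ are known to switch on genes of mitochondrial energy metabolism.

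The libraries held 2608067 to 5769630 UMIs, and 25311 nuclei of 33000 barcodes were kept. Each library kept 1788 to 3682 nuclei, and its median nucleus held 739 to 941 UMIs. Clustering that left out all 32 genes gave cardiomyocyte-like (10055 nuclei), fibroblast-like (4256), endothelial-like (1960) and endocardial-like (1434) classes with enough nuclei in every library to test. All 10 cardiomyocyte markers were found in each library of the cardiomyocyte-like class and made up 4.63 to 6.41% of its UMIs. UMIs were summed per class and library, and levels are given as counts scaled to each sum's effective size (CPM). Esrra, the gene of ERRα, had 11.8, 24.8 and 21.7 CPM in KO P10, against 111, 100.3 and 75.6 CPM in control P10 libraries. Esrrg, the gene of ERRγ, had 886, 688 and 816 CPM in KO P10, against 2229.9, 1325 and 1715 CPM in control P10 libraries. The log2 fold change was -2.27 ± 0.29 (SE, edgeR adjusted p = 0.000209) for Esrra and -1.14 ± 0.29 (SE, edgeR adjusted p = 0.0167) for Esrrg, in counts that cover whole genes and not the deleted part alone. KO P10 library 2 shared 465 barcodes with KO P10 library 1, and 464 of them were left out of library 2. The cardiomyocyte-like class lay mostly in different clusters by group. In KO P10 libraries cluster 7 held 98.2% of it in library 2 and 79.8% in library 3, while cluster 13, led by Rxfp1 with Nr4a3 and Atf3, held 58.6% in library 1. Cluster 3 held 78.4 to 91.4% in control P10 libraries, and cluster 5 held 80.3 to 90.5% in control P6 libraries. In control P10 library 1, 40.8% of UMIs came from mitochondrially encoded genes, which were left out of all sums, against 0.888 to 17.8% in the others.

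In cardiomyocyte-like nuclei several genes of the steps from fructose bisphosphate to lactate export were higher in the knockout of ERRα and ERRγ, and one hexokinase and glycogen synthase were lower. Of the 32 genes, 29 passed the filter on low counts, which left out Gapdh, Pgam1 and Pygm. A gene high in 1 group only could pass it, as Slc16a3 did through the KO P10 libraries. Counts and medians over the 29 thus describe those genes and not all 32. Of these 29, edgeR called 8 higher in KO P10 than in control P10 libraries, where 6.61% of all 10797 genes tested were called higher, and 2 lower, where 6.2% were called lower (12.8% in either direction). The 8 were Slc16a3, Pgam2, Eno3, Gaa, Pkm, Ldha, Aldoa and Tpi1, and the 2 were Hk1 and Gys1. For these 10 genes, and for 31% of all genes tested, the 3 KO P10 libraries did not overlap the 3 control P10 libraries. Without control P10 library 1, the one rich in mitochondrial UMIs, 7 genes were called higher and 3 lower, and without KO P10 library 1, the one with cluster 13, 9 were called higher and 1 lower. Without control P10 library 3, 4 were called higher and 0 lower, and 1 was called lower without control P10 library 2 or KO P10 library 3. The median log2 fold change was 0.60 over the 29 genes and 0.01 over all genes tested. In control P10 against control P6 libraries, edgeR called 1 of the 29 higher, Ugp2, and 2 lower, Eno1 and Eno3. Of all genes, 8.56% were called higher and 8.89% lower with age, 17.4% in either direction. The median log2 fold change was -0.17 over the 29 and -0.04 over all genes. Without control P10 library 1 or 3 or control P6 library 2 or 3, 0 were called higher with age. The count called lower was 1 without control P6 library 2 or 3, 4 without control P6 library 1 and 5 without control P10 library 2. The 2 comparisons share the control P10 libraries.

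**Figure D1:**
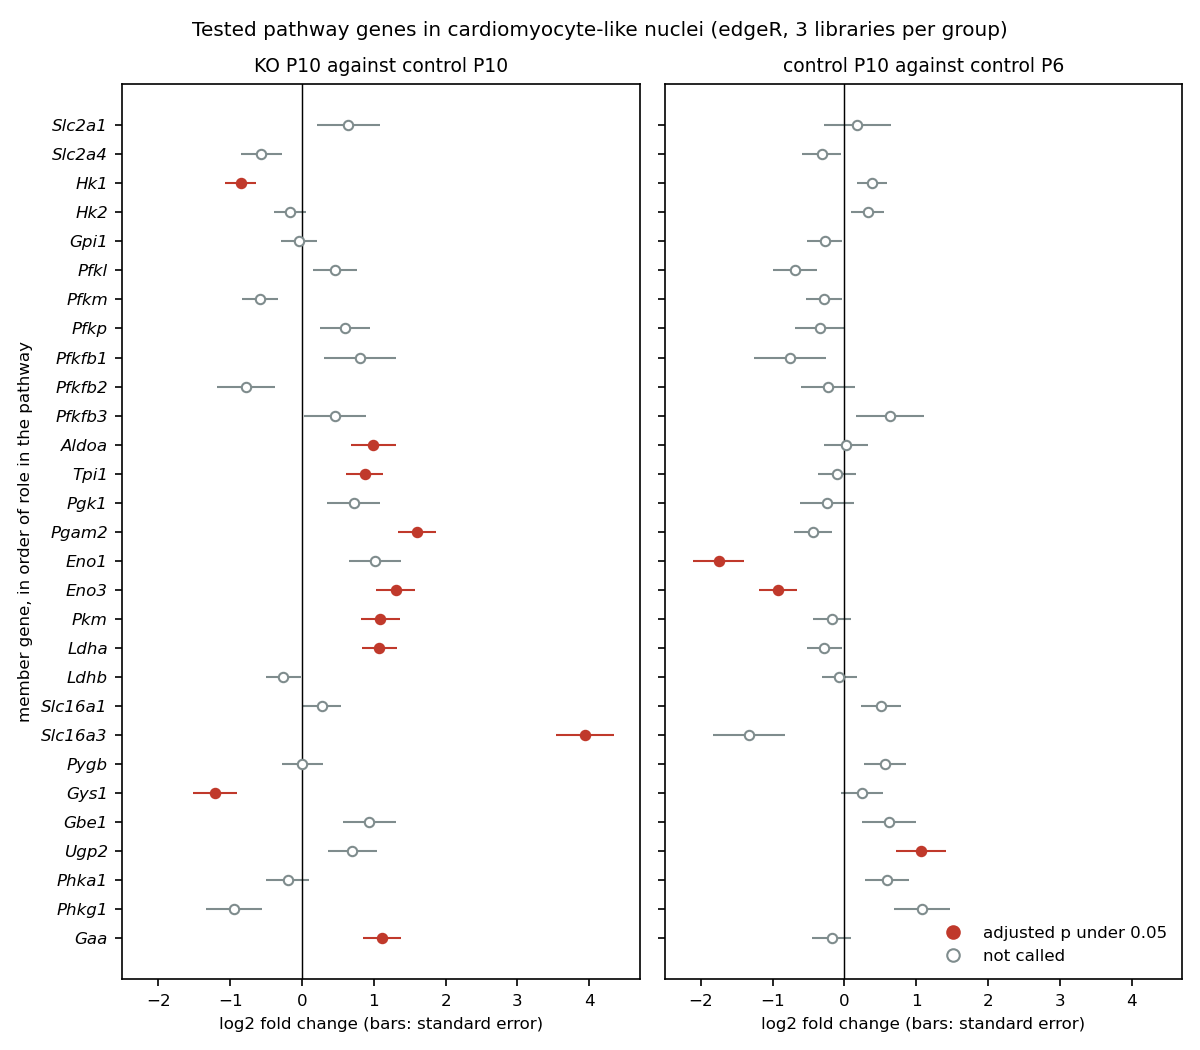
Log2 fold change with its standard error of the 29 tested genes in cardiomyocyte-like nuclei, KO P10 against control P10 (left) and control P10 against control P6 (right), in order of role from glucose uptake at the top to glycogen at the bottom. Filled red points are called by edgeR, 10 on the left and 3 on the right, and Slc16a3 lies farthest from 0 on the left.

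The promoters of 4 of the called genes are shown for the letters they hold of the ERR half-site AAGGTCA, to which estrogen-related receptors bind as part of a longer site, and of ACGTG, the core of the hypoxia response element. RefSeq windows of build GRCm38.p6, from 250 bases before to 50 bases after a gene's start, were found for 31 of the 32 genes, and both strands were searched, with matches in capitals and positions counted from the annotated start. ACGTG lies within the palindrome CACGTG, which then counts once on each strand.
Slc16a3, chr11:120948817-120949116, plus strand: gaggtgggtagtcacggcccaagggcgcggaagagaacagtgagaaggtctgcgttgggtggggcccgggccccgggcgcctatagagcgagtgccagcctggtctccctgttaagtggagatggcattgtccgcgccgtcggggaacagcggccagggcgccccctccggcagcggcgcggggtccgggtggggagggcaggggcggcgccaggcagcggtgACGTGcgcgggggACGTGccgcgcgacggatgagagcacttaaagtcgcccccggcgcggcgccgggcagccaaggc
Ldha, chr7:46845554-46845853, plus strand: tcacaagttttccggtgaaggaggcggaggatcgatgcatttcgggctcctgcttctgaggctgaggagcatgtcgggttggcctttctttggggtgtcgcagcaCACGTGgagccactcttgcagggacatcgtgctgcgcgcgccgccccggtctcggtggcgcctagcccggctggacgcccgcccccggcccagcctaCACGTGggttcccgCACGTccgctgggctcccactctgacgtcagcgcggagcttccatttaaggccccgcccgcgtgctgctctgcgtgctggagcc
Tpi1, chr6:124814109-124814408, minus strand: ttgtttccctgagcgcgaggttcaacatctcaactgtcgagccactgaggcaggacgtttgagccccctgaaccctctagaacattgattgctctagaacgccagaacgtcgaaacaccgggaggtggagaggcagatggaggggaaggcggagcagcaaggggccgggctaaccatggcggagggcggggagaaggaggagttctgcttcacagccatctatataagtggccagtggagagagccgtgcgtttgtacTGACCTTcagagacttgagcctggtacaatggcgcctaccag
Gys1, chr7:45434589-45434888, plus strand: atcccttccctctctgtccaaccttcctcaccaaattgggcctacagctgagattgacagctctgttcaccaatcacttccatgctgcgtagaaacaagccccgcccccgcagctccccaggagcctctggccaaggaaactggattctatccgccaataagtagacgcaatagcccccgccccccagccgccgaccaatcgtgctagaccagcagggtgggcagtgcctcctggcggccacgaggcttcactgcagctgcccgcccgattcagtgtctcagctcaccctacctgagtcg
Slc16a3 held ACGTG at -27 and -14, and Ldha held CACGTG at -145 and -48 and the reverse complement CACGT at -34. Tpi1 held the reverse complement TGACCTT of the half-site at 8, within its transcribed part, and Gys1, Pgam2 and Eno3 held neither motif. The second Ldha promoter held neither, and 1 of the 2 promoters of Hk1, which fell, held ACGTG at 7 and 16. Aldoa, Pkm and Gaa, the other called genes, each held ACGTG or its reverse complement in at least 1 promoter. ACGTG was found in 22 of the 48 promoters of the 31 genes (45.8%, from 18 of the 31) and in 19.6% of all 32851 promoters. By gene, 21.8% of all 27025 genes held ACGTG in a promoter. AAGGTCA was found in 3 of the 48 (Eno1, Pfkfb1 and Tpi1, 6.25%) and in 4.72% of all promoters. The median content of G and C was 60.3% over the 48 promoters and 52.7% over all, and ACGTG contains the dinucleotide CG. The matches are letters in a window and say nothing of binding.

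Neither glucose transporter passed the test, and of the hexokinases Hk1 fell while Hk2 did not pass. Slc2a4, the insulin-responsive glucose transporter of muscle, had 45.5, 24.8 and 36.5 CPM in KO P10, 42.0, 66.5 and 46.2 CPM in control P10 and 52.1, 63.9 and 79.6 CPM in control P6 libraries. KO P10 and control P10 libraries overlapped, with a log2 fold change of -0.57 ± 0.28 (SE), edgeR adjusted p = 0.202. Slc2a1, the widely expressed glucose transporter, stood at 3.07 to 17.0 CPM over the 9 libraries and was not called in either comparison. Hk1, the hexokinase of most tissues, which sits on the outer mitochondrial membrane, had 101, 103 and 94.8 CPM in KO P10, 192, 181 and 169 CPM in control P10 and 119, 155 and 139.8 CPM in control P6 libraries. All 3 KO P10 libraries lay below every other library, and Hk1 fell in KO P10 libraries with a log2 fold change of -0.86 ± 0.21 (SE), edgeR adjusted p = 0.0145. Hk2, the insulin-regulated muscle hexokinase, had 91.0, 73.6 and 77.0 CPM in KO P10, 77.4, 94.1 and 97.4 CPM in control P10 and 72.6, 57.6 and 86.5 CPM in control P6 libraries. Its groups overlapped, and the log2 fold change in KO P10 libraries was -0.17 ± 0.23 (SE), edgeR adjusted p = 0.677. The Hk1 call was lost without control P10 library 3 (adjusted p = 0.0556) and without KO P10 library 3 (adjusted p = 0.0699), and also when droplets low in Malat1, an RNA kept in nuclei, were added (adjusted p = 0.0569).

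The steps from glucose 6-phosphate to fructose bisphosphate held no called gene in cardiomyocyte-like nuclei. Gpi1, the isomerase that makes fructose 6-phosphate, had 101, 125 and 89.8 CPM in KO P10, 80.7, 139.8 and 102 CPM in control P10 and 114, 141 and 139 CPM in control P6 libraries, and its groups overlapped in both comparisons. Phosphofructokinase, the committing step, is built from muscle (Pfkm), liver (Pfkl) and platelet (Pfkp) subunits. Pfkm had 72.8, 82.1 and 93.8 CPM in KO P10, 80.7, 151 and 136 CPM in control P10 and 167, 131 and 158 CPM in control P6 libraries. Its log2 fold change in KO P10 libraries was -0.59 ± 0.25 (SE), edgeR adjusted p = 0.135. Pfkp had 118, 331 and 159 CPM in KO P10, 123, 174 and 104 CPM in control P10 and 109, 209 and 189 CPM in control P6 libraries. KO P10 library 2 stood far above the other libraries, and the log2 fold change was 0.60 ± 0.35 (SE), edgeR adjusted p = 0.273. Pfkl had 54.6, 54.2 and 37.5 CPM in KO P10, 16.1, 49.03 and 35.0 CPM in control P10 and 65.4, 48.2 and 58.7 CPM in control P6 libraries. The log2 fold change of Pfkl was 0.46 ± 0.31 (SE), edgeR adjusted p = 0.345. None of the 3 subunits separated KO P10 from control P10 libraries. The bifunctional enzymes Pfkfb1, Pfkfb2 and Pfkfb3, which make or remove the phosphofructokinase activator fructose 2,6-bisphosphate, stood at 2.498 to 16.3, 10.9 to 56.2 and 4.09 to 18.6 CPM over the 9 libraries, with none called in either comparison.

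Below fructose bisphosphate, 5 enzymes rose in KO P10 cardiomyocyte-like nuclei. Aldoa, the aldolase of muscle, had 409.7, 481 and 530.2 CPM in KO P10, 111, 336 and 257 CPM in control P10 and 208, 226 and 269.7 CPM in control P6 libraries. Tpi1, triose phosphate isomerase, had 208, 186 and 165 CPM in KO P10, 80.7, 132 and 89.3 CPM in control P10 and 78.7, 108 and 141 CPM in control P6 libraries. The KO P10 libraries were the 3 highest for both genes, and control P10 library 1 was the lowest or next to lowest of all 9. Aldoa rose with a log2 fold change of 0.99 ± 0.31 (SE), edgeR adjusted p = 0.0433. Tpi1 rose with a log2 fold change of 0.87 ± 0.26 (SE), edgeR adjusted p = 0.0363. Pgk1, phosphoglycerate kinase, had 8.07 to 32.5 CPM over the 9 libraries and was not called. Pgam2, the muscle phosphoglycerate mutase, had 362, 293 and 423 CPM in KO P10, 95.2, 165 and 91.8 CPM in control P10 and 171, 143 and 167 CPM in control P6 libraries. Eno3, the muscle enolase, had 444, 421 and 527 CPM in KO P10, 124, 241 and 194 CPM in control P10 and 319, 312 and 445 CPM in control P6 libraries. For Pgam2 every KO P10 library lay above all 6 control libraries, with a log2 fold change of 1.60 ± 0.26 (SE), edgeR adjusted p = 0.00119. For Eno3 the KO P10 libraries lay above all control P10 libraries, with a log2 fold change of 1.30 ± 0.27 (SE), edgeR adjusted p = 0.0051. Pkm, the muscle-type pyruvate kinase, had 383, 433 and 363 CPM in KO P10, 108, 252 and 187 CPM in control P10 and 184, 212 and 227 CPM in control P6 libraries. It rose with a log2 fold change of 1.09 ± 0.27 (SE), edgeR adjusted p = 0.0143, with no overlap between KO P10 and any control library.

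Both enolases fell with age in cardiomyocyte-like nuclei. Eno1, the enolase of most tissues and of the fetal heart, had 32.8, 70.5 and 39.5 CPM in KO P10, 11.3, 34.4 and 20.6 CPM in control P10 and 55.2, 93.3 and 89.6 CPM in control P6 libraries. Every control P10 library lay below every control P6 library, and the log2 fold change of Eno1 was -1.75 ± 0.35 (SE), edgeR adjusted p = 0.00401. KO P10 libraries overlapped control P10 libraries for Eno1 (log2 fold change 1.01 ± 0.36 (SE), edgeR adjusted p = 0.0774). Eno3 also fell with age, with a log2 fold change of -0.93 ± 0.26 (SE), edgeR adjusted p = 0.0242. The Eno1 call was kept in all 18 other settings tried. That of Eno3 with age was lost in 6 of 18, among them without control P10 library 1 (adjusted p = 0.0928), without control P10 library 3 (adjusted p = 0.0891), without control P6 library 2 (adjusted p = 0.0537) or without control P6 library 3 (adjusted p = 0.136). In KO P10 against control P10 libraries, the calls of Pgam2 and Eno3 were kept in all 18 settings. Pkm was lost without control P10 library 3 (adjusted p = 0.0733). Aldoa and Tpi1 were each lost in 7 of 18, with the highest adjusted p of 0.183 for Aldoa and 0.171 for Tpi1. Both were lost without control P10 library 1, control P10 library 3, KO P10 library 2 or KO P10 library 3, and Tpi1 also without KO P10 library 1. They were lost, too, with classes set by each nucleus's own marker UMIs and with low-Malat1 clusters that held cardiomyocyte markers added. Those settings also lost the age call of Eno3.

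The lactate genes held the largest fold change of all 29. Slc16a3, the monocarboxylate transporter that exports lactate from glycolytic cells, had 35.5, 44.9 and 37.5 CPM in KO P10, 1.61, 3.38 and 1.87 CPM in control P10 and 5.11, 8.77 and 4.64 CPM in control P6 libraries. These levels rest on 39, 58 and 38 UMIs in KO P10 libraries, against 1, 6 and 3 in control P10 libraries and 5, 14 and 6 in control P6 libraries. Slc16a3 rose in all 3 KO P10 libraries, none of which overlapped a control, with a log2 fold change of 3.94 ± 0.40 (SE), edgeR adjusted p = 5.13e-05, and the call was kept in all 18 other settings. It passed the filter on low counts only through the KO P10 libraries, where it was high, so this call describes a gene let in by that rise. Slc16a1, the transporter that carries lactate both ways and is the main one of heart muscle, had 178, 215 and 137 CPM in KO P10, 205, 137 and 102 CPM in control P10 and 89.9, 97.0 and 119.8 CPM in control P6 libraries. Its groups overlapped, with a log2 fold change of 0.28 ± 0.27 (SE), edgeR adjusted p = 0.532. Ldha, the lactate dehydrogenase subunit of glycolytic muscle, had 265, 287 and 232 CPM in KO P10, 83.9, 156 and 128 CPM in control P10 and 141, 139 and 172 CPM in control P6 libraries. The KO P10 libraries were the 3 highest of the 9, and Ldha rose with a log2 fold change of 1.07 ± 0.24 (SE), edgeR adjusted p = 0.00935, a call lost without control P10 library 3 (adjusted p = 0.0504). Ldhb, the subunit of the oxidative heart, had 210.3, 211 and 252 CPM in KO P10, 200.1, 336 and 267 CPM in control P10 and 231, 275 and 342 CPM in control P6 libraries. Ldhb overlapped between KO P10 and control P10 libraries, with a log2 fold change of -0.26 ± 0.24 (SE), edgeR adjusted p = 0.519.

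**Figure D2:**
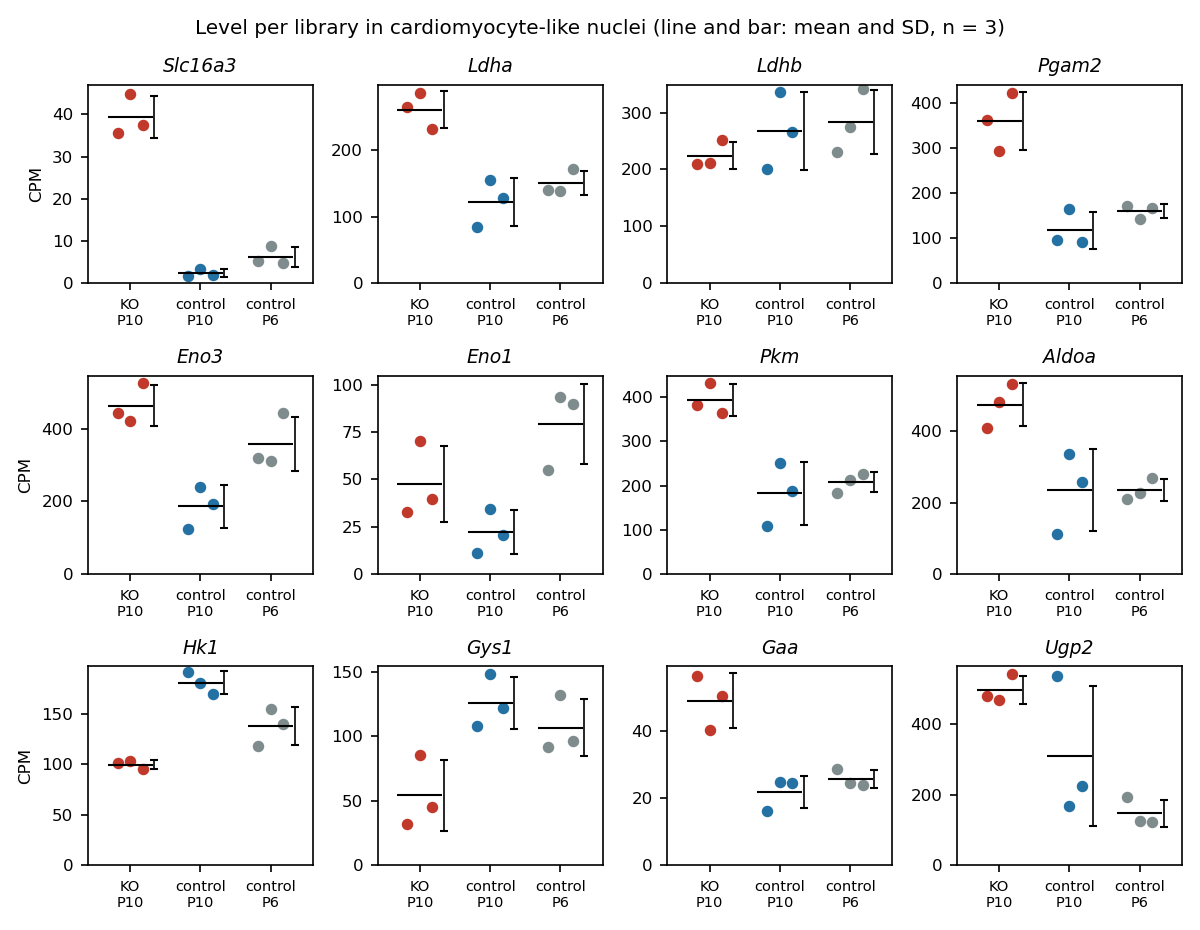
CPM of 12 genes in cardiomyocyte-like nuclei, 1 point per library, in KO P10 (red), control P10 (blue) and control P6 (grey) groups, with the group mean (line) and SD (bar, n = 3) on axes that start at 0. Slc16a3 stands at 35.5 to 44.9 CPM in KO P10 libraries and at or below 8.77 CPM in all controls, and Gys1 and Hk1 lie below the control P10 libraries.

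The pair of lactate dehydrogenase subunits was compared within each library, which does not depend on the scaling between libraries. UMIs are not corrected for gene length, so a share describes libraries and not protein. Ldha took 55.7, 57.7 and 48.0% of the UMIs of Ldha and Ldhb in KO P10 libraries, against 29.5, 31.7 and 32.4% in control P10 libraries and 37.9, 33.5 and 33.5% in control P6 libraries. Every KO P10 library lay above every control library, and the log2 ratio of Ldha over Ldhb was higher by 1.36 (0.22 ± 0.30 in KO P10 and -1.14 ± 0.10 in control P10 libraries, SD, n = 3 each, exact permutation p = 0.10). Slc16a1 took 83.3, 82.7 and 78.5% of the UMIs of the 2 lactate transporters in KO P10 libraries, against 99.2, 97.6 and 98.2% in control P10 and 94.6, 91.7 and 96.3% in control P6 libraries, again with no overlap. Of the 9 isoform pairs compared, KO P10 and control P10 libraries did not overlap in 7, and the exceptions were Eno3 with Eno1 and Pygm with Pygb. Among the 7, the pair of Pgam2 with Pgam1 rests on few UMIs of Pgam1. Of the ratios of any 2 of the 10797 genes tested, 31.2% did not overlap between the groups, and several of the pairs share a gene or hold one of the 10 called genes. With 3 libraries against 3 the exact two-sided permutation test cannot go below p = 0.10, so no pair can pass 0.05 and no adjustment over the pairs was made.

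The groups also did not overlap in 5 other pairs. Slc2a4 took 76.9, 59.3 and 80.4% of the UMIs of both glucose transporters in KO P10 libraries, against 89.7, 86.8 and 84.1% in control P10 libraries. Hk2 took 47.4, 41.7 and 44.8% of both hexokinases in KO P10 libraries, against 28.7, 34.2 and 36.5% in control P10 libraries. Pfkm took 57.1, 60.2 and 71.4% of the sum of Pfkm and Pfkl in KO P10 libraries, against 83.3, 75.5 and 79.6% in control P10 libraries. Pfkm took 38.1, 19.9 and 37.1% of the sum of Pfkm and Pfkp in KO P10 libraries, against 39.7, 46.5 and 56.6% in control P10 libraries. In the 4 pairs of transporters, hexokinases and phosphofructokinase subunits the muscle transporter and the muscle phosphofructokinase subunit took a smaller share in each KO P10 library than in any control P10 library, and Hk2 took a larger one. Pgam2 took at least 96.7% of the UMIs of Pgam2 and Pgam1 in every library. Its log2 ratio over Pgam1 was 7.66 ± 1.82 in KO P10 and 5.49 ± 0.80 in control P10 libraries (SD, n = 3 each, exact permutation p = 0.10), with no overlap. Pgam1 failed the filter on low counts and held 93 UMIs over all barcodes of all libraries. Log2 ratios of pairs used a pseudocount of 0.5 UMIs, which weighs most at such low counts. The ratio of Pgam2 over Pgam1 and its lack of overlap, here and with age, thus rest on few UMIs of Pgam1. Pygm took at most 5.28% of the UMIs of Pygm and Pygb. With age, the share of Eno3 in both enolases was 91.7, 87.5 and 90.4% in control P10 libraries, against 85.2, 77.0 and 83.2% in control P6 libraries. Every control P10 library lay above every control P6 library in this share. Ldha with Ldhb, Slc16a1 with Slc16a3, Pfkm with Pfkl, Pgam2 with Pgam1 and Pygm with Pygb did not overlap with age either. The log2 ratio differed by -0.24 for Ldha over Ldhb and by 1.72 for Slc16a1 over Slc16a3, control P10 minus control P6. How many ratios of any genes tested did not overlap with age was not counted.

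**Figure D3:**
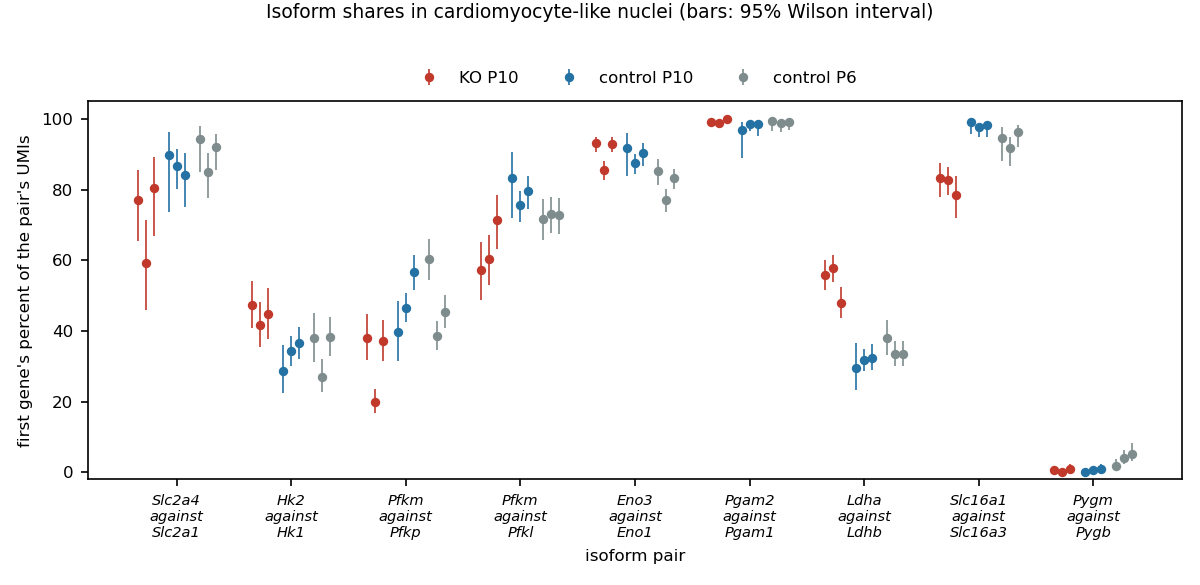
Share of the first gene in the UMIs of each of 9 isoform pairs in cardiomyocyte-like nuclei, in percent, 1 point per library with its 95% Wilson interval, in KO P10 (red), control P10 (blue) and control P6 (grey) libraries. Ldha against Ldhb lies at 48.0 to 57.7% in KO P10 libraries and at or below 37.9% in all control libraries.

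In glycogen metabolism, the synthase fell and the lysosomal glucosidase rose in KO P10 cardiomyocyte-like nuclei. Gys1, the muscle glycogen synthase, had 31.9, 85.2 and 45.4 CPM in KO P10, 108, 148 and 122 CPM in control P10 and 92.0, 132 and 96.6 CPM in control P6 libraries. Each KO P10 library lay below every control library, with a log2 fold change of -1.21 ± 0.31 (SE), edgeR adjusted p = 0.0164. Gaa, lysosomal acid alpha-glucosidase, had 56.5, 40.3 and 50.4 CPM in KO P10, 16.1, 24.8 and 24.4 CPM in control P10 and 28.6, 24.4 and 24.0 CPM in control P6 libraries. Each KO P10 library lay above every control library, with a log2 fold change of 1.11 ± 0.26 (SE), edgeR adjusted p = 0.0114, kept in all 18 other settings. The Gys1 call was lost without control P10 library 2 (adjusted p = 0.0511), control P10 library 3 (adjusted p = 0.0582), KO P10 library 1 (adjusted p = 0.0552) or KO P10 library 3 (adjusted p = 0.0758).

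The remaining glycogen genes were not called in KO P10 cardiomyocyte-like nuclei. Ugp2, which makes the UDP-glucose used by the synthase, had 482, 470.0 and 543 CPM in KO P10, 539, 169 and 225 CPM in control P10 and 192, 125 and 123 CPM in control P6 libraries. The control P10 libraries were far apart, with library 1 at the level of the KO P10 libraries, and the KO P10 log2 fold change was 0.70 ± 0.34 (SE), edgeR adjusted p = 0.193. Ugp2 was called higher with age (log2 fold change 1.07 ± 0.35 (SE), edgeR adjusted p = 0.0456), although the groups overlapped. That call was lost in 9 of 18 other settings, among them without control P10 library 1 (log2 fold change 0.46, adjusted p = 0.275). Gbe1, the branching enzyme, had 107, 431 and 185 CPM in KO P10, 161, 101 and 121 CPM in control P10 and 89.9, 87.7 and 69.5 CPM in control P6 libraries. KO P10 library 2 stood far above the rest for Gbe1, and the log2 fold change was 0.94 ± 0.37 (SE), edgeR adjusted p = 0.108. Pygb, the brain-type phosphorylase, had 359.6, 433 and 376 CPM in KO P10, 594, 314 and 265 CPM in control P10 and 334, 231 and 222 CPM in control P6 libraries. Control P10 library 1 was the highest of the 9, and the log2 fold change in KO P10 libraries was 0.01 ± 0.29 (SE), edgeR adjusted p = 0.992. Phka1, a regulatory subunit of muscle phosphorylase kinase, had 143, 346 and 231 CPM in KO P10, 352, 209.6 and 272 CPM in control P10 and 215, 197 and 136 CPM in control P6 libraries, with overlap in both comparisons. Phkg1, the catalytic subunit of that kinase in muscle, had 30.05, 10.1 and 56.3 CPM in KO P10, 71.0, 57.5 and 56.2 CPM in control P10 and 35.8, 25.0 and 26.3 CPM in control P6 libraries. Every control P10 library was above every control P6 library for Phkg1, but the log2 fold change of 1.08 ± 0.39 (SE), edgeR adjusted p = 0.0649 was not called. The log2 fold change of Phkg1 in KO P10 libraries was -0.95 ± 0.39 (SE), edgeR adjusted p = 0.122. Pygm, the muscle phosphorylase, was read too thinly to test, with 0 to 16 UMIs per library. Its level was 0.774 to 2.96 CPM in KO P10 libraries, 0 to 2.498 CPM in control P10 libraries and 6.13 to 12.4 CPM in control P6 libraries. The count of 0, in control P10 library 1, allows up to 4.84 CPM (3 UMIs, counting error only).

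Gapdh could not be followed by its own row. Glyceraldehyde 3-phosphate dehydrogenase has many processed pseudogenes in the mouse genome, and reads that match several copies cannot be assigned with certainty. Over all barcodes of the 9 libraries the Gapdh row (chr6:125161715-125166467, minus strand, GENCODE vM21 on GRCm38) held 176 UMIs. Of 169 annotated pseudogenes with at least 90% identity over at least 300 bases, 158 were listed in the tables and held 5386 UMIs together, 96.8% of the sum, with 155 at 3000002C10Rik, the most at any copy. In cardiomyocyte-like nuclei, Gapdh with these copies came to 60.1, 51.9 and 77.0 CPM in KO P10 libraries, against 4.84, 53.5 and 31.8 CPM in control P10 libraries and 153, 199 and 205 CPM in control P6 libraries. KO P10 and control P10 libraries overlapped, and all 3 control P10 libraries lay below all 3 control P6 libraries. These sums mix reads of Gapdh with any reads of the copies themselves, were put together after the values were seen and carry no test. For the other 31 genes the share of UMIs at such pseudogenes was at most 6.06%, for Pgam1, followed by 1.45% for Gpi1 and 1.07% for Ldhb.

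The same direction was read in the 3 other classes for some of the genes. In fibroblast-like nuclei 22 of the 32 genes were tested, and edgeR called 3 higher in KO P10 libraries, where 1.88% of all genes were called higher, and 0 lower, where 1.37% were (3.26% in either direction). In endothelial-like nuclei 20 were tested, with 1 called higher (1.62% of all genes) and 1 lower (0.777% of all genes, 2.39% in either direction). In endocardial-like nuclei 16 were tested, with 2 called higher (0.952% of all genes) and 0 lower (0.488% of all genes, 1.44% in either direction). The median log2 fold change of the genes tested was 0.51 in fibroblast-like, 0.54 in endothelial-like and 0.54 in endocardial-like nuclei, where that of all genes was 0.0021 in fibroblast-like, 0.01 in endothelial-like and -0.0020 in endocardial-like nuclei. At an unadjusted p under 0.05, edgeR had 8 of the 22 higher and 0 lower in fibroblast-like nuclei, where 8.08% of all genes were higher and 6.96% lower. It had 8 of the 20 higher and 3 lower in endothelial-like nuclei (8.96 and 6.99% of all genes), and 5 of the 16 higher and 0 lower in endocardial-like nuclei (6.16 and 5.62% of all genes). DESeq2 called 0 lower in fibroblast-like and endocardial-like nuclei. The share of Malat1 moved with the groups in these classes. It was 3.14 to 5.34% of UMIs in KO P10, against 6.45 to 7.71% in control P10 libraries in fibroblast-like nuclei, 2.73 to 4.93% against 6.27 to 6.81% in endothelial-like nuclei, and 3.52 to 5.18% against 5.41 to 7.06% in endocardial-like nuclei, with no overlap in any of them. Hemoglobin genes took 0.440 to 1.96% in KO P10, against 0.193 to 0.280% in control P10 libraries in fibroblast-like nuclei, and 0.379 to 1.55% against 0.169 to 0.298% in endocardial-like nuclei, again apart. In endothelial-like nuclei the hemoglobin shares of 0.357 to 2.18% in KO P10 and 0.200 to 0.373% in control P10 libraries overlapped. The part of Malat1 and hemoglobin in these differences was not tested. Pgam2 was called in each class: in fibroblast-like nuclei it had 345, 552 and 573 CPM in KO P10, against 66.9, 128 and 123 CPM in control P10 libraries (log2 fold change 2.15 ± 0.30 (SE), edgeR adjusted p = 0.000546). Endothelial-like nuclei had 664, 499 and 947 CPM in KO P10, against 185, 259.6 and 218 CPM in control P10 libraries for Pgam2 (log2 fold change 1.65 ± 0.32 (SE), edgeR adjusted p = 0.00486). Endocardial-like nuclei had 315, 433 and 619.7 CPM in KO P10, against 150.4, 155 and 133 CPM in control P10 libraries for the same gene (log2 fold change 1.62 ± 0.33 (SE), edgeR adjusted p = 0.0135). In no class did its KO P10 and control P10 libraries overlap. The fibroblast-like call was kept in all 16 other settings tried there, and the endothelial-like and endocardial-like calls were lost without control P10 library 3 and without KO P10 library 3 (adjusted p up to 0.0786 in endothelial-like and 0.109 in endocardial-like nuclei). Without KO P10 library 1, 5 genes were called higher in fibroblast-like and 3 in endothelial-like nuclei, and without KO P10 library 2, 2 in endothelial-like and 1 in endocardial-like nuclei. Without control P10 library 1, 1 was called higher in endocardial-like nuclei.

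Eno3, Ldha and Gys1 were called in some classes. In fibroblast-like nuclei Eno3 had 308, 442 and 493 CPM in KO P10, against 92.7, 131 and 151 CPM in control P10 libraries (log2 fold change 1.69 ± 0.30 (SE), edgeR adjusted p = 0.00374), a call kept in all 16 settings. Endocardial-like nuclei had 323, 353 and 715 CPM in KO P10, against 138, 186 and 174 CPM in control P10 libraries for Eno3 (log2 fold change 1.44 ± 0.35 (SE), edgeR adjusted p = 0.0401). That call was lost in 8 of 15 other settings, 5 of which leave out a library (any but KO P10 library 1), with adjusted p up to 0.269. Ldha had 296, 387 and 306 CPM in KO P10, against 113, 173 and 129 CPM in control P10 libraries in fibroblast-like nuclei (log2 fold change 1.22 ± 0.30 (SE), edgeR adjusted p = 0.0297). It was lost in 6 of 16 settings, among them without control P10 library 1 or 3 or KO P10 library 2 or 3, with adjusted p up to 0.183. Gys1 had 18.4, 62.4 and 31.2 CPM in KO P10, against 196, 133 and 71.1 CPM in control P10 libraries in endothelial-like nuclei (log2 fold change -1.81 ± 0.48 (SE), edgeR adjusted p = 0.0464). It was lost in 5 of 15 settings, which include leaving out control P10 library 1 or 2 or KO P10 library 1 or 3, with adjusted p up to 0.167. Slc16a3 had too few UMIs to be tested in the other classes. In fibroblast-like nuclei it had 41.0, 72.5 and 12.1 CPM in KO P10, against 5.15, 17.1 and 4.24 CPM in control P10 libraries. Endothelial-like nuclei had 61.5, 62.4 and 31.2 CPM in KO P10, against 10.9, 6.66 and 4.74 CPM in control P10 libraries for Slc16a3. Endocardial-like nuclei had 39.9, 54.6 and 40.9 CPM in KO P10, against 0, 24.9 and 0 CPM in control P10 libraries for it, where the counts of 0 in control P10 libraries 1 and 3 allow up to 37.6 and 30.6 CPM. Its KO P10 and control P10 libraries overlapped in fibroblast-like nuclei and did not in the other pair of classes. The difference between classes in the KO P10 effect was tested as an interaction, and edgeR called 0 of the genes tested (28 against fibroblast-like, 27 against endothelial-like and 26 against endocardial-like nuclei), beside 2.5%, 0.456% and 1.11% of all genes. At an unadjusted p under 0.05 there were 7 such interactions against fibroblast-like, 0 against endothelial-like and 3 against endocardial-like nuclei. Shares of all genes at that unadjusted threshold were not counted for interactions, so the adjusted shares are no measure for these counts. Against fibroblast-like nuclei, 1 gene was called with a library left out: Ugp2 without control P10 library 1 (log2 difference 1.03, edgeR adjusted p = 0.0112) and Gys1 without KO P10 library 2 (log2 difference -1.48, edgeR adjusted p = 0.0134) or KO P10 library 3 (log2 difference -1.40, edgeR adjusted p = 0.0397). With all libraries, none of these effects was shown to differ between cardiomyocyte-like nuclei and another class, and a p above the threshold does not show that they were alike.

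With age, 9 of the genes rose in endothelial-like nuclei. Of 20 genes tested, edgeR called these 9 higher in control P10 than in control P6 libraries and 0 lower (0 at an unadjusted p under 0.05, and 0 by DESeq2), where 12.7% of all genes were called higher and 15.3% lower (28% in either direction). They were Hk2, Pfkm, Ldhb, Slc16a1, Pygb, Gys1, Gbe1, Ugp2 and Phka1, and the median log2 fold change over the 20 was 0.45, against -0.05 over all genes tested. Hk2 had 119.8, 77.7 and 71.1 CPM in control P10, against 8.71, 16.9 and 27.0 CPM in control P6 libraries (log2 fold change 2.29 ± 0.50 (SE), edgeR adjusted p = 0.0015), with no overlap. Ugp2 had 338, 255 and 201 CPM in control P10, against 81.3, 109.7 and 103 CPM in control P6 libraries (log2 fold change 1.39 ± 0.30 (SE), edgeR adjusted p = 0.00148), also with no overlap. These calls of Hk2 and Ugp2 were kept in all 15 other settings. Gys1 had 196, 133 and 71.1 CPM in control P10, against 40.6, 67.5 and 44.9 CPM in control P6 libraries (log2 fold change 1.25 ± 0.39 (SE), edgeR adjusted p = 0.0198). Pfkm had 65.3, 144 and 156 CPM in control P10, against 66.8, 59.1 and 71.9 CPM in control P6 libraries (log2 fold change 1.01 ± 0.35 (SE), edgeR adjusted p = 0.0343), with overlap through control P10 library 1. The other 5 rose by log2 fold changes of 0.82 to 1.16, with edgeR adjusted p of 0.0166 to 0.04. These 7 calls were lost in 2 to 8 of 15 settings, and DESeq2 called 4 of the 20 higher. With 1 library left out the count was 4 without control P6 library 2 or control P10 library 2, and 5 without control P10 library 3 or either of control P6 libraries 1 and 3. Other RNAs moved with age in this class too: 55 of 57 ribosomal protein genes were called lower. Malat1 took 6.27 to 6.81% of UMIs in control P10, against 2.81 to 6.204% in control P6 libraries, and the 10 cardiomyocyte markers took 2.70 to 4.17% in control P10, against 1.05 to 1.38% in control P6 libraries. Their part in these rises was not tested.

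Pygb had 316, 204 and 161 CPM in control P10, against 116, 118 and 126 CPM in control P6 libraries in endothelial-like nuclei. Phka1 had 152, 144 and 166 CPM in control P10, against 81.3, 92.8 and 71.9 CPM in control P6 libraries there. Gbe1 had 76.2, 88.8 and 118 CPM in control P10, against 49.4, 46.4 and 44.9 CPM in control P6 libraries in the same class. None of these 3 overlapped between the groups. Ldhb had 501, 493 and 365 CPM in control P10, against 151, 253 and 306 CPM in control P6 libraries in endothelial-like nuclei. Slc16a1 had 54.4, 129 and 92.4 CPM in control P10, against 26.1, 50.6 and 62.9 CPM in control P6 libraries, and of these 5 genes it alone overlapped between the groups. The share of all genes tested that did not overlap between control P10 and control P6 libraries was not counted in any class. In fibroblast-like nuclei Gbe1 was the 1 gene of 22 called higher with age, with 77.2, 63.8 and 91.3 CPM in control P10, against 34.1, 31.4 and 23.1 CPM in control P6 libraries (log2 fold change 1.39 ± 0.42 (SE), edgeR adjusted p = 0.0345). That call was lost in 7 of 16 settings, among them without control P10 library 1 or 3 or either of control P6 libraries 2 and 3 (adjusted p up to 0.162), and 2 genes were called higher without control P10 library 2. Of all genes in that class, 6.07% were called higher and 6.01% lower (12.1% in either direction). Of the 22, 0 were called lower, with 1 lower at an unadjusted p under 0.05, 0 by DESeq2 and 1 without control P6 library 1. In endocardial-like nuclei edgeR called 0 of 16 genes in either direction with age, where 4.37% of all genes were called higher and 4.88% lower (9.25% in either direction). Of those 16, 0 were higher and 0 lower at an unadjusted p under 0.05, with 0 called by DESeq2. Without control P10 library 2, 1 was called lower. The 10 cardiomyocyte markers, all found in each library, took 2.70 to 4.17% of UMIs of endothelial-like nuclei in control P10 libraries, against 1.05 to 1.38% in control P6 libraries. In fibroblast-like nuclei they took 1.18 to 1.88% in control P10, against 0.539 to 0.632% in control P6 libraries. Their part in these age differences was not tested.

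The age effect itself differed between classes for 6 pairs of gene and class. Against endothelial-like nuclei, edgeR called the class by age interaction of 5 of 26 genes tested (10 at an unadjusted p under 0.05), beside 10.2% of all genes. Against fibroblast-like nuclei it called 1 of 26 (9 at an unadjusted p under 0.05), beside 1.99% of all genes, and 0 of 25 against endocardial-like nuclei (2 at an unadjusted p under 0.05), beside 1.15% of all genes. These shares of all genes are of adjusted calls, and shares at an unadjusted p were not counted. Eno3 had the smallest adjusted p: its age effect in cardiomyocyte-like minus that in endothelial-like nuclei was a log2 difference of -1.50 ± 0.23 (SE, edgeR adjusted p = 1.52e-08). Eno3 had 218, 375 and 353 CPM in control P10, against 212, 181 and 265 CPM in control P6 libraries in endothelial-like nuclei, while it fell in cardiomyocyte-like nuclei. Hk2 differed by a log2 difference of -1.95 ± 0.44 (SE, edgeR adjusted p = 0.000385). Pfkm differed by a log2 difference of -1.28 ± 0.30 (SE, edgeR adjusted p = 0.000643) and Ldhb by a log2 difference of -1.01 ± 0.23 (SE, edgeR adjusted p = 0.000319). These 4 interactions were kept when any 1 library was left out. That of Gys1 was a log2 difference of -0.92 ± 0.33 (SE, edgeR adjusted p = 0.0479), lost in 5 of 6 such fits. Against fibroblast-like nuclei, Aldoa differed by a log2 difference of -0.86 ± 0.23 (SE, edgeR adjusted p = 0.0311), lost in 3 of 6: without control P10 library 3 or either of control P6 libraries 2 and 3.

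**Figure D4:**
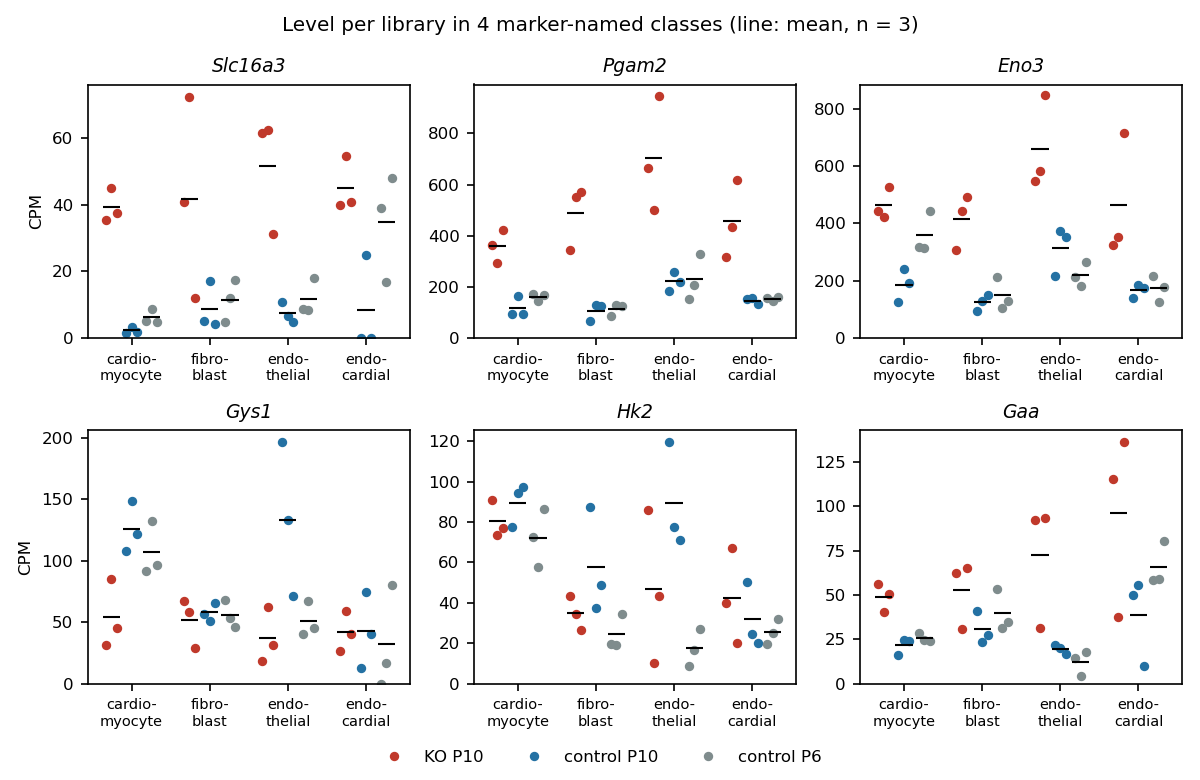
CPM of 6 genes per library in 4 classes of nuclei, in KO P10 (red), control P10 (blue) and control P6 (grey) libraries, with the group mean as a line (n = 3) and axes that start at 0. Pgam2 stands higher in KO P10 than in control P10 libraries in all 4 classes, and Hk2 of endothelial-like nuclei stands at 71.1 to 120 CPM in control P10 and at 8.71 to 27.0 CPM in control P6 libraries.

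Cardiomyocyte-like nuclei ranked highest of the 4 classes for some of the genes and not for others. Pygb and Pfkfb2 stood highest in cardiomyocyte-like nuclei in all 9 libraries, Hk2, Pfkp, Gbe1 and Phka1 in 8, and Slc2a4, Hk1, Pfkm, Slc16a1 and Gys1 in 7. Aldoa, Tpi1, Pkm, Ldha, Gpi1, Pfkl, Pfkfb3, Slc2a1, Slc16a3 and Ugp2 stood highest in cardiomyocyte-like nuclei in 0 of 9 libraries. Pgam2 and Eno3, the muscle isoforms, stood highest there in 1 and 3 of 9. Pgam2, for example, had 704 ± 227 CPM in endothelial-like nuclei and 359 ± 64.6 CPM in cardiomyocyte-like nuclei of KO P10 libraries (SD, n = 3). Classes come from clusters of the same nuclei, so these levels carry no test. The 10 cardiomyocyte markers took 1.86 to 3.29% of UMIs of fibroblast-like nuclei in KO P10 libraries, against 1.18 to 1.88% in control P10 libraries, with all 10 found in each library. In endothelial-like nuclei they took 3.33 to 4.45% in KO P10 and 2.70 to 4.17% in control P10 libraries, and in endocardial-like nuclei 2.11 to 2.69% in KO P10 and 1.15 to 2.08% in control P10 libraries. Muscle markers were thus read in every class. Their part in the levels of Pgam2 and Eno3 outside cardiomyocyte-like nuclei was not tested.

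Several of the genes that rose in KO P10 libraries were also abundant in droplets low in Malat1. Clusters low in Malat1 stayed unnamed, and one of them, led by Acta1 and Nppa, had Pgam2 among its leading genes. They held 44.1, 25.0 and 29.9% of nuclei kept in KO P10 libraries, against 30.6, 18.0 and 18.9% in control P10 and 8.45, 13.2 and 12.0% in control P6 libraries. Over the 9 libraries, the median ratio of the level in these droplets to that in the other nuclei was 5.25 for Pgam2, 3.88 for Aldoa, 3.58 for Eno3, 3.53 for Tpi1, 3.37 for Ldha and 2.90 for Pkm. The same ratio was 3.79 for Ldhb, 2.65 for Gpi1 and 2.15 for Pfkm, which were not called in KO P10 cardiomyocyte-like nuclei, and 1.02 for Hk1 and 1.04 for Gys1, which fell. In low-Malat1 droplets Slc16a3 had 111, 124 and 73.7 CPM in KO P10, 3.61, 12.0 and 7.28 CPM in control P10 and 4.72, 23.9 and 11.5 CPM in control P6 libraries. Gaa had 207, 126 and 186 CPM in KO P10, 62.5, 50.9 and 52.4 CPM in control P10 and 33.1, 28.1 and 41.1 CPM in control P6 libraries there. Both genes separated KO P10 from control libraries in these droplets too, which were left out of the sums tested. Levels of the other called genes in these droplets are not listed, and the share of all genes that separated there was not counted. The mix of clusters in these droplets differed by group. Cluster 0, one of them, held 121, 279 and 247 nuclei of control P6 and 3, 0 and 17 of KO P10 libraries.

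**Figure D5:**
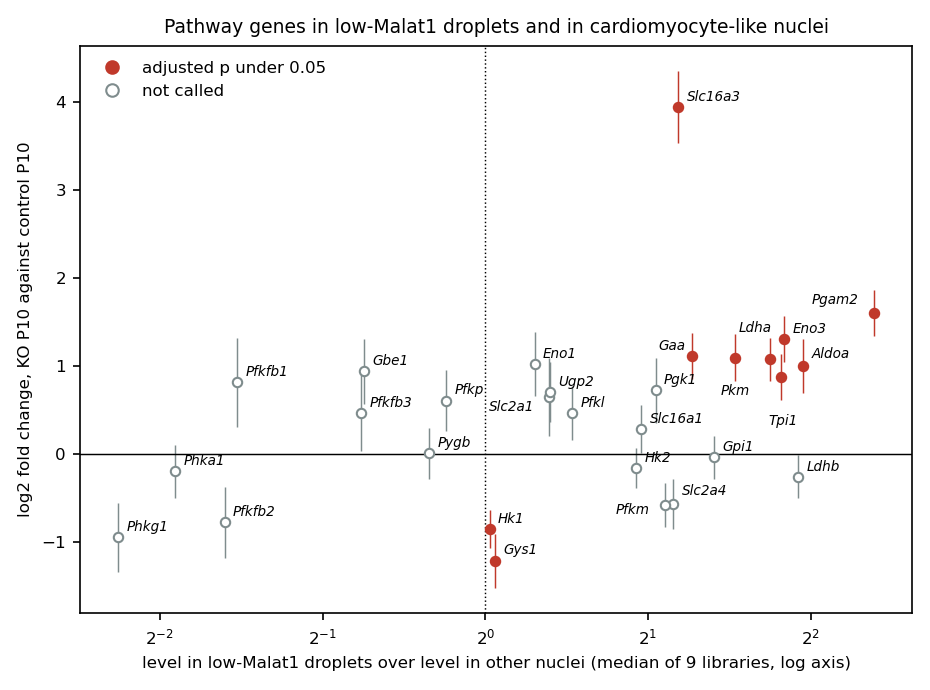
Log2 fold change with its standard error of the 29 tested genes in cardiomyocyte-like nuclei, KO P10 against control P10, against the ratio of each gene's level in low-Malat1 droplets to that in other nuclei (median of 9 libraries, log axis). The called genes that rose lie at ratios of 2.27 to 5.25, where Ldhb, at 3.79, and Gpi1, at 2.65, were not called.

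Other RNAs moved with the groups as well. Hemoglobin genes took 0.285 to 0.999% of cardiomyocyte-like UMIs in KO P10 libraries, against 0.123 to 0.224% in control P10 libraries, and no fibroblast marker was at 0 in any library. The 10 fibroblast markers took 0.120 to 0.342% in KO P10 and 0.138 to 0.184% in control P10 libraries. Malat1 took 6.00, 14.9 and 13.9% of cardiomyocyte-like UMIs in KO P10 libraries. It took 11.3, 13.2 and 12.8% in control P10 and 20.9, 16.2 and 15.3% in control P6 libraries. KO P10 and control P10 libraries overlapped, and every control P10 library lay below every control P6 library. The share of ribosomal protein genes in cardiomyocyte-like UMIs was 0.928, 0.512 and 0.710% in KO P10 libraries, against 0.163, 0.380 and 0.281% in control P10 and 0.508, 0.631 and 0.766% in control P6 libraries. Of 73 ribosomal protein genes tested, 38 were called higher and 1 lower in KO P10 libraries (median log2 fold change 1.13). With age, 54 of the 73 were called lower and 1 higher (median log2 fold change -1.32), and 49 of 66 were called lower in fibroblast-like, 55 of 57 in endothelial-like and 29 of 47 in endocardial-like nuclei, with 0 higher. In KO P10 libraries 18 of 66 were called higher in fibroblast-like, 17 of 57 in endothelial-like and 4 of 47 in endocardial-like nuclei, with 0 lower. The summed level of the 32 genes was 4390.4, 5365 and 4857 CPM in KO P10 libraries, against 3526, 3765 and 3191 CPM in control P10 and 3279, 3338 and 3637 CPM in control P6 libraries, so the KO P10 libraries were above all controls. Gene span went with direction as well: of 12 tested genes with a span under 20 kb, 7 were called higher and 0 lower in KO P10 libraries, and of 17 longer ones 1 was called higher and 2 lower. Over all genes tested, 11.3% of those under 20 kb were called higher and 3.25% lower. Of the longer ones, 3.8% were called higher and 7.91% lower. With age, 0 of the 12 shorter genes were called higher and 2 lower, Eno1 and Eno3. Of the 17 longer genes, 1 was called higher with age, Ugp2, and 0 lower. Over all genes, 2.77% of those under 20 kb were called higher and 18.1% lower with age. All longer genes had 12.0% called higher and 3.09% lower with age. The part of ribosomal protein genes, hemoglobin, the Malat1 share, span or low-Malat1 material in the differences of these genes was not tested.

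Of 49 other genes of the same pathways, 34 were tested in cardiomyocyte-like nuclei, and edgeR called 2 higher and 0 lower in KO P10 libraries, where 6.61% of all genes were called higher and 6.2% lower. At an unadjusted p under 0.05, edgeR had 3 of the 34 higher and 2 lower, where 14.1% of all genes were higher and 14.1% lower. Of the 2 called higher, Gyg, glycogenin, the primer of glycogen, had 131, 95.2 and 90.8 CPM in KO P10, against 40.3, 38.3 and 29.97 CPM in control P10 libraries (log2 fold change 1.56 ± 0.24 (SE), edgeR adjusted p = 0.000896). It was called higher also in fibroblast-like nuclei (log2 fold change 1.60 ± 0.34 (SE), edgeR adjusted p = 0.0128) and endocardial-like nuclei (log2 fold change 1.79 ± 0.45 (SE), edgeR adjusted p = 0.044). In cardiomyocyte-like nuclei its KO P10 libraries lay above all control P10 libraries. In fibroblast-like nuclei Bsg, the partner protein that lactate transporters need to reach the membrane, was called higher. It had 525, 684 and 512 CPM in KO P10, against 175, 333 and 276 CPM in control P10 libraries (log2 fold change 1.10 ± 0.27 (SE), edgeR adjusted p = 0.0297).

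With age, 3 of those 34 genes were called higher and 3 lower in cardiomyocyte-like nuclei, shares close to the 8.56 and 8.89% of all genes. Ppp1r3a, the muscle subunit that brings protein phosphatase to glycogen, had 194, 59.2 and 170.5 CPM in control P10, against 59.3, 20.7 and 27.0 CPM in control P6 libraries (log2 fold change 2.00 ± 0.46 (SE), edgeR adjusted p = 0.00824), with a small overlap. Epm2a, the glycogen phosphatase laforin, had 30.7, 19.7 and 29.3 CPM in control P10, against 9.20, 10.0 and 6.95 CPM in control P6 libraries (log2 fold change 1.56 ± 0.38 (SE), edgeR adjusted p = 0.0115). Phkb, the beta subunit of phosphorylase kinase, had 344, 176 and 239 CPM in control P10, against 128, 138 and 95.8 CPM in control P6 libraries (log2 fold change 1.06 ± 0.26 (SE), edgeR adjusted p = 0.0118). Control P10 libraries did not overlap control P6 libraries for Epm2a and Phkb. Phka2, the liver-type alpha subunit of phosphorylase kinase, fell with 71.0, 73.8 and 63.1 CPM in control P10, against 125, 101 and 104 CPM in control P6 libraries (log2 fold change -0.66 ± 0.21 (SE), edgeR adjusted p = 0.0426). Tkt, transketolase of the pentose phosphate pathway, fell with 14.5, 44.0 and 33.1 CPM in control P10, against 48.0, 70.1 and 74.2 CPM in control P6 libraries (log2 fold change -0.99 ± 0.31 (SE), edgeR adjusted p = 0.0377). The glucose transporter Slc2a8 fell with 3.23, 12.4 and 4.995 CPM in control P10, against 13.3, 19.4 and 27.0 CPM in control P6 libraries (log2 fold change -1.38 ± 0.45 (SE), edgeR adjusted p = 0.0428). None of these 3 overlapped between the groups. How many of all genes tested did not overlap with age was not counted.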

How the data were processed

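UMI counts per gene and barcode of 9 single-nucleus libraries were deposited by the authors; per the labels' protocols, ventricles (fresh or flash frozen, with no record of which per library) were dounced and nuclei were spun through sucrose before droplets were made. STAR 2.5.2a and the build mm10 are named per the submitters' processing notes; the annotation, the use of strand and the rule for choosing barcodes are not given in the sources used here, so reads of overlapping or antisense genes and of near-identical copies may be shared. The genes and lists were chosen with earlier results of these data known.

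Barcodes with at least 500 UMIs were kept, the 5% with the highest scrublet score per library (1328 in all) and shared barcodes of KO P10 library 2 were left out, and nuclei were clustered with scanpy 1.11.5 and igraph 0.11.9 (2000 variable genes, 30 components, 15 neighbours, Leiden resolution 1) without the 32 genes and 49 other pathway genes. Clusters were named from marker lists (at least 3 markers raised 1.5-fold); the pseudocount of 10 CPM, the rival rule and the Malat1 threshold (under 40% of the median cluster) were set after the data were seen. UMIs were summed per class and library, without mitochondrial genes, and are shown as CPM over the class's TMM effective size in that library (plain totals for low-Malat1 droplets). edgeR 4.0.16 (TMM, filterByExpr, quasi-likelihood F test, all 9 libraries in 1 fit) gave fold changes and Benjamini-Hochberg adjusted p-values over all genes tested, called under 0.05. Interactions between class and group had the library as a block. Tested on simulated data, the cardiomyocyte-like fit recovered 95% of 200 genes changed by a log2 of 2 among 10509 genes tested, with 6 false calls. The recovered share was 93% in fibroblast-like, 87.2% in endothelial-like and 89.1% in endocardial-like nuclei. Of the 32 genes, those called in cardiomyocyte-like nuclei changed by less than a log2 of 2, except Slc16a3. Recovery of such smaller changes was not measured.

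Values are given per library for each of the 32 genes called in a class tested, and in cardiomyocyte-like nuclei for those with a mean of at least 50 CPM in a group; other pathway genes are named where called in cardiomyocyte-like nuclei, except 1 that is not reported here. Gyg and Bsg in other classes were named after their values were seen. Alternatives were DESeq2 1.42.0, other scaling, no filter, the replicate number as a block, only the 6 libraries compared, each library left out, and other choices of nuclei and classes. Libraries of a group differed by more than counting noise. Intervals on shares cover counting error only.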

Additional observations from a re-analysis of the deposited data

Results flagged for a closer look

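Each of 6 genes had an age effect, control P10 against control P6, that differed between cardiomyocyte-like nuclei and another class by edgeR's test of the difference itself. Against endothelial-like nuclei, the log2 difference was -1.95 for Hk2, the muscle hexokinase, -1.28 for Pfkm, the muscle phosphofructokinase subunit, -1.50 for Eno3, the muscle enolase, and -1.01 for Ldhb, the heart subunit of lactate dehydrogenase. With any 1 of the 6 libraries left out, these stayed called, between -2.24 and -1.56 for Hk2, -1.46 and -1.24 for Pfkm, -1.69 and -1.47 for Eno3, and -1.26 and -0.86 for Ldhb. The log2 difference of -0.92 for Gys1, glycogen synthase, against endothelial-like nuclei was no longer called in 5 of 6 such fits. Against fibroblast-like nuclei, the log2 difference of -0.86 for Aldoa was no longer called in 3 of 6. The share of cardiomyocyte marker UMIs in endothelial-like nuclei was 2.70 to 4.17% in control P10 libraries, against 1.05 to 1.38% in control P6 libraries. In fibroblast-like nuclei this share was 1.18 to 1.88% in control P10 libraries, against 0.539 to 0.632% in control P6 libraries. Its part in these differences was not tested.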

How the results depend on the processing

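Of 1122 values of single genes recomputed under other settings, 1006 kept their side of the threshold, 99 lost a call, 17 gained one and 0 changed sign with a call. The 1006 include genes not called in either fit whose direction changed. Gpi1 in KO P10 against control P10 cardiomyocyte-like nuclei, for example, had log2 fold changes of -0.19 to 0.20. In cardiomyocyte-like nuclei, the number of all genes called in KO P10 against control P10 libraries was 1383, and 516 to 1276 with 1 library left out. That of the 32 genes called higher was 8 (4 to 9 with 1 library left out) and lower 2 (0 to 3, and 1 with low-Malat1 clusters added). For control P10 against control P6 libraries, 1884 genes were called (665 to 2205 with 1 left out). Of the 32 genes, 1 was called higher: 0 to 1 with 1 library left out, 2 with no filter or with only the 6 libraries compared, and 0 with a minimum of 800 UMIs, at resolution 0.5, with the 32 genes among the clustering genes or with low-Malat1 clusters added. Of the same genes, 2 were called lower: 1 to 5 with 1 library left out, 4 with no filter and 1 with classes by own marker UMIs. Class by age interactions were 5 against endothelial-like nuclei (4 to 7 with 1 left out) and 1 against fibroblast-like nuclei (0 to 2), and class by genotype interactions against fibroblast-like nuclei were 0 (0 to 1). The cause of these shifts was not tested, beyond the smaller number of libraries or genes in the fit.

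Deviations of libraries with the same replicate number had correlations of -0.16 to 0.11 between KO P10 and control P10, and -0.01 to 0.30 between control P10 and control P6. Those with different numbers had -0.25 to 0.23 and -0.37 to 0.39. So few pairs cannot show whether equal numbers share an animal or a day, which the labels do not say. With the replicate number as a block, the KO P10 comparison called 1391 genes, 9 of the 32 higher and 2 lower. The age comparison then called 1964, 2 and 2. In endothelial-like nuclei the block gave 4 called higher in KO P10 libraries, not 1, and in fibroblast-like nuclei 6, not 3. Other settings moved the counts in those 2 classes too: without a filter 3 of the endothelial-like and 5 of the fibroblast-like genes were called higher, and with candidate doublets kept 7 and 5. Class choices by own markers or 800 UMIs were not run where a library kept fewer than 50 nuclei. At this depth, with 1 to 58 UMIs of Slc16a3 per library, low genes can be compared only coarsely.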
